A study of Mus musculus with 8 samples.

Results

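T cells made up 230 of 20012 barcodes in single-cell data from mice that carried an oropharyngeal carcinoma. A barcode was taken as a T cell where the CD3 chains Cd3e, Cd3d and Cd3g together had at least 2 UMIs (unique molecular identifiers, 1 per captured RNA molecule), S100a8 and S100a9 made up under 1% of the cell's RNA UMIs, and C1qa, C1qb, C1qc and Cd79a were at 0. Of the 230, 48 came from tumor, 59 from blood, 116 from spleen and 7 from bone marrow. Members were thus selected on RNA counts of these cells, so values of the CD3 chains and of the genes the rule excluded describe the choice and support nothing here.

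The mice were female C57BL6/J animals that received MOPC cells, a mouse oropharyngeal carcinoma line, under the skin. From tumor, blood, spleen and bone marrow 1 RNA library and 1 antibody tag library each were made, and the labels give every tissue the same treatment, MPOC tumor, and the same mix of genotypes, WT and Genotype_02 (a gene knockout model), without saying which gene or which cells. Sorted cells were alive and were either Gr1-positive and negative for NK1.1, FcRe, Ter119, B220 and CD3, or Gr1-negative and cKit-positive. CD3 stood among the gate's exclusion markers, so these are the T cells that came through in spite of it, and they need not resemble the T cells of the organ. Tumors were digested with enzymes for 45 min at 37 °C, whereas the other tissues were not, and numbers of target cells were levelled before hashtagging, so tissue, library and handling cannot be told apart. Hashtag antibodies mark mouse, organ and condition, but no source ties a hashtag to a genotype. The tissues compared here may thus differ in the genotypes behind their T cells, and no test took genotype into account.

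T cells recognise peptide antigens through a receptor whose signal runs through the CD3 chains. Naive and central memory T cells circulate between blood and lymphoid organs, which takes the chemokine receptor Ccr7 and the sphingosine phosphate receptor S1pr1, under transcription factors such as Klf2, Tcf7 and Lef1. Effector CD8 T cells kill targets with perforin and granzymes and make interferon gamma, and T cells stimulated over long periods carry inhibitory receptors such as PD-1. Ly6C and Ly6A are small lipid-anchored surface proteins of mouse leukocytes; Ly6C is known on memory CD8 T cells and on monocytes, and the Gr1 antibody of the sort binds Ly6G and Ly6C.

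The label held against other T cell genes. At least 1 UMI of Trac, Trbc1 or Trbc2, which encode constant regions of the alpha-beta receptor, was present in 48 of 48 tumor T cells, 59 of 59 blood T cells and 114 of 116 spleen T cells. In cells rich in S100a8 and S100a9 (at least 5% of their UMIs) 1 of 44 in tumor, 18 of 5559 in blood and 8 of 3060 in spleen had such a UMI. At least 1 UMI of 7 NK cell markers, some of which T cells also express, was in 26 of 48 tumor, 34 of 59 blood and 62 of 116 spleen T cells, and a UMI of Ncr1 or Klrb1c, a pair chosen out of these 7, in 1 tumor, 2 blood and 5 spleen T cells. At the edge of the rule, 2 tumor, 2 blood and 6 spleen T cells had exactly 2 CD3 UMIs, and 0 tumor, 15 blood and 20 spleen barcodes met every other clause with 1 CD3 UMI. In tumor, 95 barcodes reached 2 CD3 UMIs, of which 39 were left out for C1q genes and 17 for S100a8 and S100a9.

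Median UMIs per T cell were 6631 in tumor, 8220 in blood and 9137 in spleen. T cells made up 10.4% of tumor barcodes (95% Clopper-Pearson interval 7.76 to 13.5), 0.760% of blood barcodes (0.579 to 0.979) and 1.90% of spleen barcodes (1.57 to 2.27). Across 6 tumor hashtags with over 10 cells the T cell share ran from 3.23% in hashtag 6 to 43.2% in hashtag 2. Of 31 barcode sequences found in more than 1 library, 1 belonged to a T cell. Macrophage or dendritic genes (Lyz2, Cst3, Cd74 and H2-Ab1) made up at least 0.3% of UMIs in 6 of 48 tumor, 12 of 59 blood and 29 of 116 spleen T cells. The 8 monocyte and macrophage markers summed to 2619, 2370 and 1158 CPM (UMIs of the gene per 1000000 UMIs) in tumor, blood and spleen T cells, with C1qa, C1qb and C1qc at 0 by the rule. Other cells of these tissues held them at 8303, 9088 and 6582 CPM. The 5 dendritic cell markers summed to 511, 864 and 1350 CPM in tumor, blood and spleen T cells, and to 1084, 223 and 1694 CPM in the other cells. In blood, T cells thus held more of them than the other cells did. B cell, epithelial and stromal markers were at 284 CPM or less, and neutrophil markers at 672, 356 and 684 CPM. The rule held Cd79a of the B cell set at 0 and capped S100a8 and S100a9 of the neutrophil set, so these sums are in part fixed by it.

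For tests, the counts of T cells with a single hashtag were summed per hashtag and tissue, each hashtag of a tissue standing for 1 mouse. With at least 5 cells per sum, tumor gave 2 sums (hashtag 2 with 19 cells and 130099 UMIs, hashtag 4 with 7 cells and 29313 UMIs), blood 6 (38532 to 122271 UMIs) and spleen 6 (55558 to 470494 UMIs). Hashtags 3, 5 and 7 of the tumor held 4 cells each and entered only a fit with at least 3 cells per sum. Tumor was compared with the mean of blood and spleen by edgeR's quasi-likelihood test, with p-values adjusted by Benjamini-Hochberg over all 8155 genes. At an adjusted p under 0.05, 357 genes were higher in tumor T cells, which is 4.38% of the genes tested, and 129 were lower, 1.58%. These counts include Cd3g among the higher and S100a8 and S100a9 among the lower genes, which the rule used. Ranges and medians of blood and spleen given for a gene are those of the 12 sums with at least 5 cells, and spleen hashtags 5 and 7, with 3 and 4 cells, are named where they change what the ranges show. The median log2 fold change of all genes was -0.00.

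Cytotoxic genes were higher in tumor T cells than in blood and spleen T cells. Of 18 listed and tested cytotoxic genes, 13 rose and 0 fell, with a median log2 fold change of 2.77. The genes that rose were Gzmb, Gzmk, Prf1, Nkg7, Fasl, Ccl5, Klrk1, Klrd1, Klrc1, Ifng, Ctsw, Cst7 and Serpinb9. At an unadjusted p under 0.05 the counts were also 13 and 0, and DESeq2 called 10 higher and 0 lower. With 5 tumor sums the count was 13 of 18, where 6.3% of all 8429 genes were higher, and among T cells with Cd8a or Cd8b1 and no Cd4 UMI it was 12 of 16, where 4.99% of 5476 genes were higher. The 7 NK cell markers, which cytotoxic T cells share in part, summed to 1820 CPM in tumor, 901 in blood and 911 in spleen T cells, with 7, 4 and 4 of them above 0; Ncr1, Klra8 and Klra4 were at 0 in blood and spleen. Other barcodes of tumor, blood and spleen held these 7 markers at 5271, 7790 and 4039 CPM. The part of these markers, or of RNA from those barcodes, in the result was not tested.

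Granzyme B (Gzmb, ENSMUSG00000015437), the serine protease that starts cell death in targets, was at 1591 and 307 CPM in tumor hashtags 2 and 4, against 0 to 129.8 CPM in blood (median 59.1) and 0 to 98.1 CPM in spleen (median 2.13). Both tumor sums lay above all 12 blood and spleen sums, and so did hashtags 3, 5 and 7, at 1698, 313 and 3533 CPM. Gzmb thus had a log2 fold change of 5.34 ± 0.57 (SE, worked back from the F statistic of the test) with an adjusted p of 6.28e-08. Without tumor hashtag 2 it was 3.55 and lost the call (adjusted p = 0.236), and DESeq2 gave an adjusted p of 0.109. The values with 5 tumor sums were 5.81 and 1.28e-10. A Gzmb UMI was found in 33 of 48 tumor T cells (68.8%), 8 of 59 blood T cells (13.6%) and 5 of 116 spleen T cells (4.31%). Thinned to 1000 UMIs per cell, with 3 tumor cells too shallow, the shares were 44.4%, 8.47% and 0.862% in the same tissues. Cells rich in S100a8 and S100a9, which should lack the gene, had it in 1 of 44 (tumor), 0 of 5559 (blood, which allows up to 0.0540%) and 0 of 3060 (spleen, up to 0.0980%), at median depths of 3128, 3086 and 3073 UMIs.

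Perforin (Prf1), which opens the target membrane for granzymes, was at 1022 and 68.2 CPM in tumor hashtags 2 and 4, against 0 to 85.8 CPM in blood (median 14.6) and 13.0 to 36.0 CPM in spleen (median 21.8). Hashtag 4 overlapped the highest blood sum and spleen hashtag 5 (82.5 CPM), and hashtags 3, 5 and 7, at 637, 598 and 388 CPM, did not. Its log2 fold change was 4.72 ± 0.43 with an adjusted p of 5.43e-09. Without tumor hashtag 2 the value was 1.49 and not called (adjusted p = 0.733).

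Nkg7, a protein of cytotoxic granule membranes, was at 3313 and 2320 CPM in the larger tumor sums and at 2308, 1481 and 2348 CPM in the smaller ones. It was at 319 to 807 CPM in blood (median 448) and 209 to 793 CPM in spleen (median 427). No tumor sum overlapped blood or spleen, and the log2 fold change of 2.64 ± 0.29 (adjusted p = 9.59e-08) was called under all 34 alternatives. Nkg7 had a UMI in 40 of 48 tumor, 36 of 59 blood and 67 of 116 spleen T cells, and thinned to 1000 UMIs in 73.3%, 28.8% and 17.2% of cells.

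Ifng, the gene of interferon gamma, was at 323 and 136 CPM in the larger tumor sums, against 0 to 16.5 CPM in blood and 0 to 18.0 CPM in spleen. All 5 tumor sums stood above every blood and spleen sum, at 53.1, 85.5 and 114 CPM in hashtags 3, 5 and 7. Its log2 fold change was 6.24 ± 0.61 (adjusted p = 1.73e-08). Ifng was seen in 11 tumor T cells, all of them with a CD8 and no Cd4 UMI, and a single cell held 35.1% of its tumor UMIs.

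Other members rose by similar or smaller amounts. Fasl, the death ligand, was at 0 in every blood sum and had a log2 fold change of 3.44 over spleen (adjusted p = 0.00384). Serpinb9, an inhibitor of granzyme B, changed by 5.28 ± 0.46 against blood and spleen. Gzmk, which encodes granzyme K, changed by 4.07 ± 0.75, and the chemokine Ccl5 by 2.92 ± 0.48. The NK-type receptor genes Klrc1, Klrk1 and Klrd1 changed by 3.56 ± 0.54, 2.90 ± 0.51 and 1.84 ± 0.47. Klrd1 lost its call under 5 alternatives, among them without either tumor sum.

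**Figure D1:**
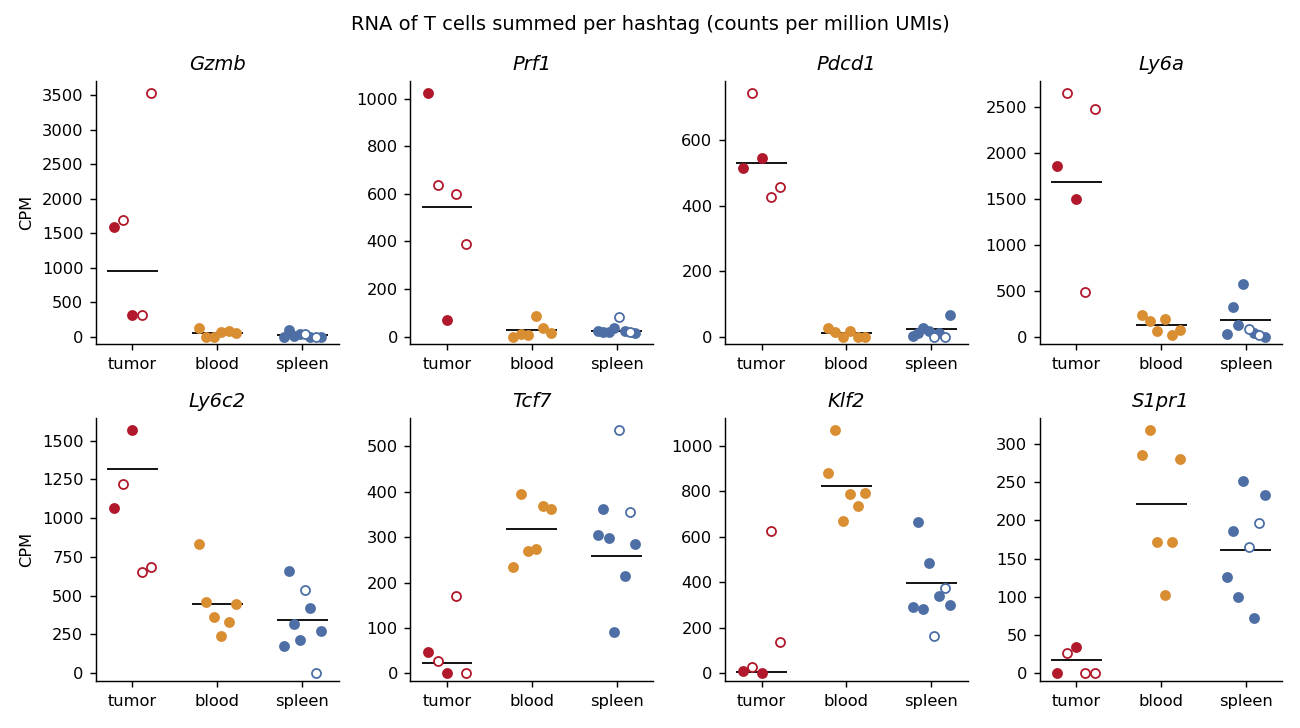
RNA levels of 8 genes in T cells, in CPM (vertical axis), for tumor, blood and spleen (horizontal axis). Each point is 1 hashtag, filled with at least 5 cells and open with 3 or 4 cells, and the line is the mean of the filled points. Gzmb, Pdcd1 and most Ly6a and Prf1 points of tumor stand above blood and spleen, whereas S1pr1 points of tumor lie below them, and Klf2 has 1 open tumor point at 627 CPM.

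The granzyme family was not uniform. Gzmc, Gzmd and Gzme, neighbours of Gzmb on mouse chromosome 14 that encode further granzymes, had UMIs in 12, 5 and 5 tumor T cells. Gzmf and Gzmg followed with 9 and 2 tumor cells. In blood all 5 were at 0 in 59 cells (upper limit 5.08%), and in spleen a single cell held 2 UMIs of Gzmc. Of 13 tumor T cells with Gzmc, Gzmd or Gzme, 11 also had Gzmb.

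Gzmc was at 377 and 0 CPM in tumor hashtags 2 and 4 and at 1698, 1111 and 1413 CPM in hashtags 3, 5 and 7. The 12 larger blood and spleen sums held no UMI, and spleen hashtag 5 held 2, at 82.5 CPM. Set against 3 counts over those 12 sums, Gzmc was at least 169-fold higher, Gzmd at least 155-fold and Gzme at least 303-fold higher in the larger tumor sums. These bounds rest on hashtag 2 alone, since hashtag 4 was at 0 for all 3 genes. A single cell held 28.4% of the Gzmc, 54.9% of the Gzmd and 83.3% of the Gzme UMIs of tumor T cells. The 3 genes are close copies, so the counting may have split or dropped their reads and their separate values are uncertain.

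Granzyme A and granzyme M stood outside this pattern. Gzma had a log2 fold change of -0.74 ± 1.55 (adjusted p = 0.878) and UMIs in 3 tumor, 7 blood and 5 spleen T cells, of which 1 spleen cell held 142 of 150. Gzmm had UMIs in 0 tumor, 5 blood and 9 spleen T cells. Gzmk was present in 21 tumor cells, 20 of them with CD8 and no Cd4 UMI.

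The promoters of the granzyme genes that set tumor T cells apart are shown to compare their sequence. Each line gives the 250 bases before the annotated start, 5′ to 3′ on the gene's own strand, from RefSeq on build GRCm38.p6. Capitals mark TGTGGT, the core letters bound by RUNX factors, on either strand (ACCACA on the other) and TGANTCA, the AP-1 site, whose letters read the same on both strands apart from N. The windows, all on the minus strand, are chr14:56262335-56262584 for Gzmb, chr14:56234658-56234907 for Gzmc, chr14:56132594-56132843 for Gzmd and chr14:56120626-56120875 for Gzme.
Gzmb: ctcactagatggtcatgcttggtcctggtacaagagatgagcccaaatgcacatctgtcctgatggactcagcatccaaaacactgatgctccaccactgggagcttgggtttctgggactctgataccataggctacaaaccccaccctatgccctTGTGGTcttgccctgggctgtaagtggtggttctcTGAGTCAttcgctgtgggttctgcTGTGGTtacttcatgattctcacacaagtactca
Gzmc: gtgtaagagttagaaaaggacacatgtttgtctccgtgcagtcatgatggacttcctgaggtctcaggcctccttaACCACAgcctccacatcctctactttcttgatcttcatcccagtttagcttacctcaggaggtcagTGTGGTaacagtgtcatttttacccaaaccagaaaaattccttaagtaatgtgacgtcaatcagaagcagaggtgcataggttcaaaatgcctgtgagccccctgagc
Gzmd: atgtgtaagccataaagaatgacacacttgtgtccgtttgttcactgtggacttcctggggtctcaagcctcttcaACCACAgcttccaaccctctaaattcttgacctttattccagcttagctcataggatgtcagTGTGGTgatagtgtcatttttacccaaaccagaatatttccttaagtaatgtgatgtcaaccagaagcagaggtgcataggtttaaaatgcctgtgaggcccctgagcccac
Gzme: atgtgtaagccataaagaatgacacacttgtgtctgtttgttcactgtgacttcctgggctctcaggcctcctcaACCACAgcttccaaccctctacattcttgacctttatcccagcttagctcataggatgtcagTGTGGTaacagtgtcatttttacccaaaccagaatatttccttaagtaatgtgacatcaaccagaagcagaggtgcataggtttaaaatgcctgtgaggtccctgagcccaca

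Each of the 4 windows held 2 matches to TGTGGT, and Gzmb alone held a match to TGANTCA, with no overlap between motifs. Of 27025 RefSeq promoter windows of the same length, 14.2% held TGTGGT and 6.87% held TGANTCA. Gzmd and Gzme were identical at 95.2% of aligned bases, Gzmc and Gzme at 84.1% and Gzmc and Gzmd at 83.3%. A match describes these letters and is not a measured binding site. Promoters of S1pr1, Ly6a and Ccr7 were not analysed here.

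Chemokine genes rose in tumor T cells as well. Of 13 listed cytokine and chemokine genes 6 passed the filter on low counts, and 4 rose (Ccl3, Ccl4, Ifng and Tgfb1). Ccl4, a chemokine that draws T cells and macrophages, was at 1676 and 580 CPM in tumor hashtags 2 and 4, against 0 to 49.5 CPM in blood and 0 to 65.0 CPM in spleen, where medians were 0 and 4.48 CPM. Hashtags 3, 5 and 7 held 0, 85.5 and 114 CPM, so the 5 tumor sums overlapped the lymphoid ones at hashtag 3. Its log2 fold change was 6.96 ± 0.48 (adjusted p = 3.37e-11).

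Ccl3, its close relative, was at 1729 CPM in tumor hashtag 2, at 0 in hashtags 3 and 4 and at 28.5 and 22.8 CPM in hashtags 5 and 7. It was at 0 in all blood sums and at 6.38 CPM in the highest spleen sum. With 3 UMIs over all blood and spleen sums, the ratio of summed counts was 775 (counting interval 262 to 3784), called by edgeR at an adjusted p of 2.29e-09. It rested on hashtag 2, where 1 cell held 47.6% of all tumor Ccl3 UMIs, and DESeq2 did not call it (adjusted p = 0.271). Cxcl2 and Cxcl3, chemokines that attract neutrophils, rose as well, and between the larger tumor sums the Cxcl2 rise rested on hashtag 2. Cxcl2 was at 653 CPM in hashtag 2 and 370 CPM in hashtag 5, at 0 in hashtags 3, 4 and 7 and at 0 in every blood and spleen sum. Other tumor barcodes held Cxcl2 at 8446, Cxcl3 at 1500 and Ccl4 at 1270 CPM, and the part of free RNA from those cells in the T cell values was not tested.

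Genes of inhibitory receptors were higher in tumor T cells. Of 11 listed genes 10 passed the filter, and 5 rose (Pdcd1, Lag3, Havcr2, Entpd1 and Nr4a2) and 0 fell, with a median log2 fold change of 2.50. Pdcd1, which encodes the inhibitory receptor PD-1, was at 515 and 546 CPM in tumor hashtags 2 and 4 and at 743, 427 and 456 CPM in hashtags 3, 5 and 7. Blood sums held 0 to 26.0 CPM (median 6.37) and spleen sums 2.99 to 65.0 CPM (median 15.0). All 5 tumor sums lay above every blood and spleen sum.

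Pdcd1 had a log2 fold change of 5.41 ± 0.47 (adjusted p = 2.29e-09), and it was called under all 33 alternatives that gave a value. Pdcd1 had a UMI in 34 of 48 tumor, 5 of 59 blood and 12 of 116 spleen T cells, and in 2.27%, 0% and 0.0327% of the cells rich in S100a8 and S100a9 of these tissues. Lag3, which binds MHC class II and dampens receptor signals, had UMIs in 18 tumor, 0 blood and 4 spleen T cells and a log2 fold change of 4.29 over spleen (adjusted p = 4.30e-04). Nr4a2, a transcription factor that receptor signals induce, changed by 5.05 ± 0.91, and the ectonucleotidase gene Entpd1 (CD39) by 3.40 ± 0.58. Havcr2, the gene of TIM-3, changed by 3.08 ± 0.52. Tox, a transcription factor of exhausted T cells, had a log2 fold change of 0.53 ± 0.45 (adjusted p = 0.620) and was not called. Under DESeq2 3 of 10 were higher, without Lag3 and Nr4a2. Entpd1 was at 1322 CPM in the other tumor barcodes, and 1 T cell held 37.6% of its T cell UMIs.

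Ctla4, the gene of another inhibitory receptor that regulatory T cells carry constitutively, was at 784 and 1228 CPM in tumor hashtags 2 and 4, against 0 to 156 CPM in blood (median 93.7) and 5.98 to 432 CPM in spleen (median 50.5). Hashtags 3, 5 and 7 held 557, 399 and 1140 CPM, so hashtag 5 lay below the highest spleen sum. Ctla4 changed by 3.52 ± 0.51 on the log2 scale (adjusted p = 1.00e-05). In those CD8 cells 30 of 33 in tumor, 4 of 31 in blood and 12 of 56 in spleen had a Ctla4 UMI.

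Other genes of the regulatory T cell list moved in part. Of 7 tested members 3 rose (Ctla4, Tnfrsf4 and Tnfrsf18) and 0 fell; Tnfrsf4 and Tnfrsf18 encode the costimulatory receptors OX40 and GITR. Foxp3, the defining transcription factor, had UMIs in 5 tumor, 9 blood and 6 spleen T cells and a log2 fold change of -0.54 ± 1.5 (adjusted p = 0.913). Without cells that carried macrophage or dendritic RNA 2 of 7 rose, where 4.21% of all genes were higher.

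Genes of recirculating T cells were lower in tumor. Of 18 listed naive and memory genes, 7 fell (among them Ccr7, Tcf7, Lef1, S1pr1, Klf2 and Bcl2) and 4 rose (Il2rb, Tbx21, Cd27 and Id2), with a median log2 fold change of -1.27. With 5 tumor sums 3 rose and 9 fell, where 3.36% of all genes were lower, and among CD8 cells 3 rose and 6 fell, where 2.28% were lower. Without cells that carried macrophage or dendritic RNA 3 rose and 8 fell, where 1.68% were lower. The 4 that rose are genes of effector and memory T cells: Il2rb encodes a chain of the receptors for interleukins 2 and 15, Tbx21 and Id2 encode regulators of effector cells, and Cd27 a costimulatory receptor. Their log2 fold changes were 2.13 ± 0.32, 3.0 ± 0.48, 2.27 ± 0.40 and 1.19 ± 0.33 in the order Il2rb, Tbx21, Id2 and Cd27. Cd27 and Lef1 each lost the call in 15 of 34 alternatives, CD8 cells among them for Lef1. Il7r, the receptor chain for interleukin 7, missed the threshold (-1.36 ± 0.44, adjusted p = 0.0706), and Cd44, an adhesion receptor of experienced T cells, had a log2 fold change of 0.58 ± 0.39 (adjusted p = 0.489).

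S1pr1, which guides exit from tissues into blood and lymph, was at 0 and 34.1 CPM in tumor hashtags 2 and 4 and at 26.5, 0 and 0 CPM in hashtags 3, 5 and 7, against 103 to 319 CPM in blood (median 226) and 71.7 to 252 CPM in spleen (median 156). The 5 tumor sums lay below all others. With 1 UMI in the larger tumor sums, the ratio of summed counts was 0.0420 (counting interval 0.00106 to 0.236), called by edgeR at an adjusted p of 0.00161 and lost without tumor hashtag 2 (adjusted p = 0.669). A UMI of S1pr1 was seen in 2 of 48 tumor, 45 of 59 blood and 79 of 116 spleen T cells. After thinning to 1000 UMIs 0 of 45 tumor, 13 of 59 blood and 17 of 116 spleen cells had one. For tumor that allows up to 6.67% of cells with a UMI at this depth, and sets no limit on the share of cells that express the gene.

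Tcf7, the gene of the transcription factor TCF-1 of naive and memory cells, was at 46.1 and 0 CPM in tumor hashtags 2 and 4 and at 26.5, 171 and 0 CPM in hashtags 3, 5 and 7. Blood held 234 to 395 CPM (median 319) and spleen 90.0 to 363 CPM (median 292). Hashtag 5 overlapped spleen and the other tumor sums did not. It fell by 3.0 ± 0.56 on the log2 scale (adjusted p = 4.23e-04), called under all 34 alternatives. Bcl2, the survival gene, was at 46.1, 0, 0, 0 and 22.8 CPM in tumor hashtags 2, 4, 3, 5 and 7, below the lowest blood sum of 260 CPM and the lowest spleen sum, which was 167 CPM among the larger sums and 143 CPM in hashtag 7. It changed by -3.55 ± 0.66 (adjusted p = 3.80e-04).

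Klf2, the transcription factor that keeps S1pr1 expressed, was at 7.69 and 0 CPM in tumor hashtags 2 and 4, against 671 to 1070 CPM in blood (median 791) and 283 to 667 CPM in spleen (median 320). The smaller tumor sums differed among themselves, with 26.5, 627 and 137 CPM in hashtags 3, 5 and 7, and hashtag 5 lay within the spleen range. With 1 UMI in the larger tumor sums, the ratio of summed counts was 0.0136 (counting interval 3.44e-04 to 0.0759; adjusted p = 1.06e-07), and with 5 tumor sums the log2 fold change was -1.98 ± 0.49 (adjusted p = 0.00484). Ccr7 depended on the same hashtag. It was at 0 in tumor hashtags 2, 3, 4 and 7 and at 627 CPM in hashtag 5, against 63.7 to 311 CPM in blood (median 185) and 35.9 to 147 CPM in spleen (median 75.1). Against 3 counts over the larger tumor sums, Ccr7 was at least 5.33-fold lower, but with 5 tumor sums the log2 fold change was -0.31 (adjusted p = 0.851). A single tumor cell held 54.5% of the Ccr7 and 56.4% of the Klf2 UMIs.

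**Figure D2:**
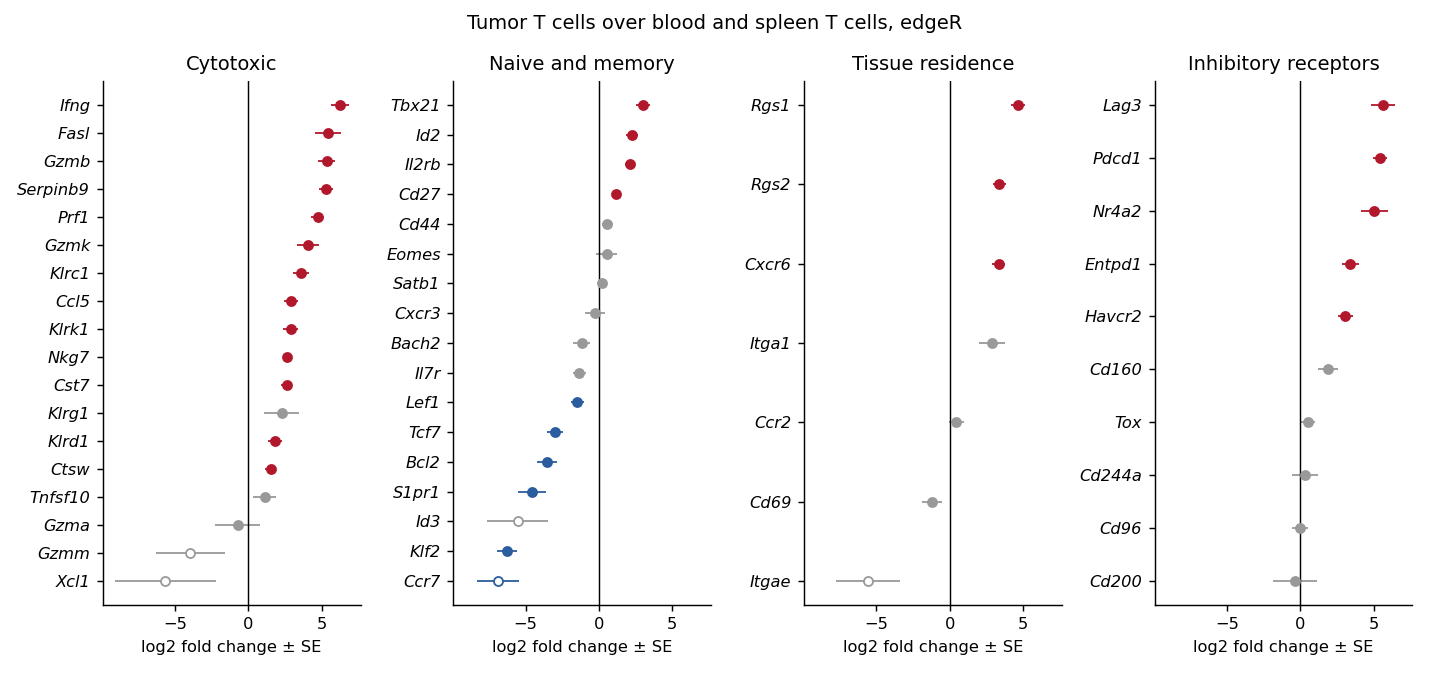
Log2 fold changes of tumor over the mean of blood and spleen T cells (horizontal axis, ± SE) for tested members of 4 gene lists, from edgeR's quasi-likelihood test. Red marks genes called higher, blue genes called lower and grey genes not called; open points are genes at 0 in tumor or in blood and spleen, whose fitted value is no bound, and Fasl and Lag3 were at 0 in blood. Cytotoxic and inhibitory receptor genes lie mostly right of 0, with 13 of 18 and 5 of 10 called higher, and the naive and memory genes shown split into 4 higher and 6 lower.

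Genes of tissue-resident T cells changed in part. Of 11 listed genes 8 passed the filter and 4 rose (among them Cxcr6, Rgs1 and Rgs2), with a median log2 fold change of 2.67. Cxcr6, the receptor for Cxcl16, was at 507 and 443 CPM in tumor hashtags 2 and 4 and at 425, 427 and 569.9 CPM in hashtags 3, 5 and 7, against 8.18 to 137 CPM in blood (median 50.3) and 0 to 90.0 CPM in spleen (median 47.5). Spleen hashtag 5 held more, 289 CPM. All 5 tumor sums lay above every blood and spleen sum, and the log2 fold change was 3.36 ± 0.45 (adjusted p = 2.93e-06). Rgs1 and Rgs2, which dampen signals of chemokine receptors, changed by 4.65 ± 0.47 and 3.39 ± 0.45. Cd69, which antagonises S1pr1 on the cell surface, had a log2 fold change of -1.20 ± 0.67 (adjusted p = 0.368).

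Ly6c2 and Ly6a rose in tumor T cells. Of 9 genes of the Ly6 list 4 passed the filter, and 2 rose and 0 fell. Ly6a (ENSMUSG00000075602), which encodes Sca-1, was at 1860 and 1501 CPM in tumor hashtags 2 and 4 and at 2653, 484 and 2485 CPM in hashtags 3, 5 and 7, against 12.3 to 234 CPM in blood (median 116) and 0 to 576 CPM in spleen (median 83.6). Hashtag 5 lay below the highest spleen sum and the other tumor sums above all. The log2 fold change was 3.69 ± 0.54 (adjusted p = 1.36e-05), called under all 34 alternatives. Ly6e, another member, did not pass the test (-0.06 ± 0.37, adjusted p = 0.969).

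Ly6c2 (ENSMUSG00000022584) was at 1068 and 1569 CPM in tumor hashtags 2 and 4 and at 1221, 655 and 684 CPM in hashtags 3, 5 and 7. Blood sums held 240 to 830.5 CPM (median 403) and spleen sums 176 to 657 CPM (median 296). The 2 larger tumor sums and hashtag 3 lay above all others, and hashtags 5 and 7 below the highest blood sum. Its log2 fold change was 1.75 ± 0.34 (adjusted p = 6.65e-04), and with 5 tumor sums 1.47 ± 0.33 (adjusted p = 0.00167). Ly6c1, a near-identical neighbour, had UMIs in 1 tumor, 1 blood and 8 spleen T cells, so reads that the pair shares make both values uncertain.

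Ly6c2 RNA lay with CD8. Of 48 tumor T cells 33 had Cd8a or Cd8b1 and no Cd4 UMI, as did 31 of 59 in blood and 56 of 116 in spleen. Cells rich in S100a8 and S100a9, which belong to myeloid lineages, held a Ly6c2 UMI in 18.2%, 19.0% and 24.0% in tumor, blood and spleen. Among the CD8 T cells 29 of 33 in tumor, 22 of 31 in blood and 33 of 56 in spleen had a Ly6c2 UMI, at 1043, 495 and 413 CPM. Among cells with Cd4 and no CD8 UMI 1 of 7, 3 of 14 and 9 of 30 had one. Restricted to CD8 cells, the log2 fold change of Ly6c2 was 1.63 and missed the threshold (adjusted p = 0.0854). Cd8a itself was higher in tumor (1.93 ± 0.42, adjusted p = 0.00298), and Cd8b1 was not called (0.42 ± 0.49, adjusted p = 0.746). Tumor hashtag 4 held Cd8a at 341 CPM, below spleen hashtag 8 at 351 CPM, and the call was lost under 4 alternatives. The other tumor sums, at 484 to 982 CPM, lay above all blood and spleen sums. The part of CD8 cell numbers in the Ly6c2 difference was not tested, nor was that of the sort, whose Gr1 antibody binds Ly6C.

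Ly6a differed from Ly6c2 in which cells held it. Among CD8 cells 31 of 33 in tumor had Ly6a, against 6 of 31 in blood and 11 of 56 in spleen, at 1544, 42.8 and 19.7 CPM. In the cells rich in S100a8 and S100a9 Ly6a had a UMI in 29.5% of tumor, 0.845% of blood and 1.11% of spleen cells, below the share in T cells of each tissue. Among the remaining T cells it was in 10 of 15, 13 of 28 and 29 of 60, at 975, 156 and 184 CPM. In the CD8 cells the log2 fold change of Ly6a was 5.26 (adjusted p = 4.40e-06), against 3.69 in all T cells, and the difference between these values was not tested.

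Of the T cells with Ly6c2, 29 of 31 in tumor had Ly6a (93.5%), against 4 of 27 in blood (14.8%) and 15 of 50 in spleen. Over all T cells Ly6a was in 85.4%, 32.2% and 34.5%, likewise with tumor far above both. Ccl5 was found in 87.1%, 77.8% and 52% of Ly6c2 cells and in 79.2%, 42.4% and 30.2% of all T cells of tumor, blood and spleen. Differences between tissues in these shares were not tested.

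**Figure D3:**
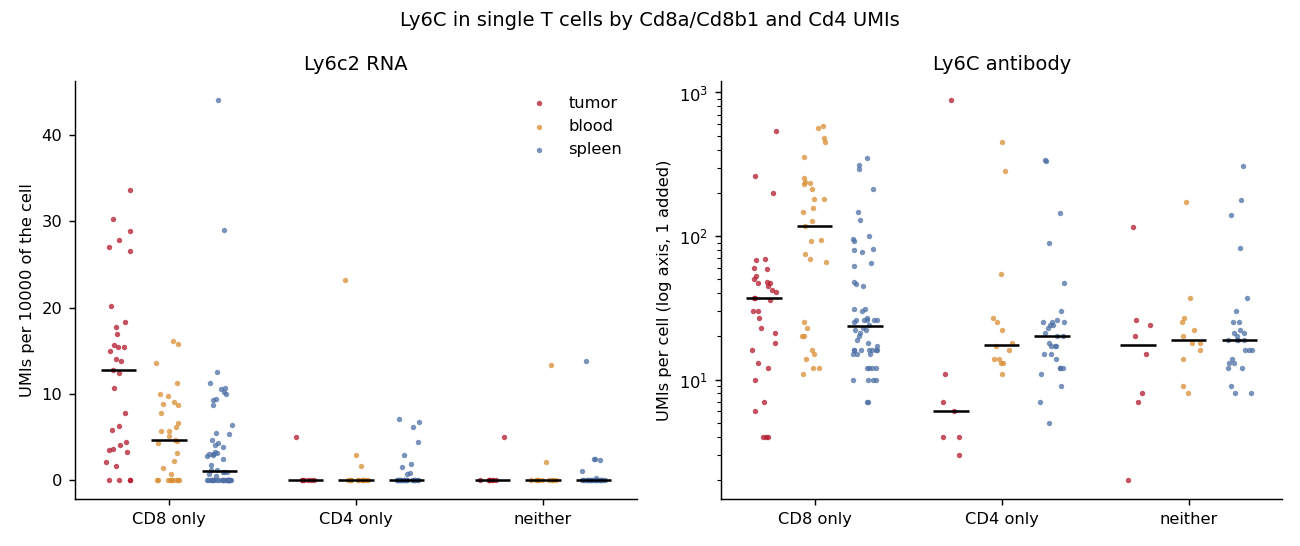
Ly6c2 RNA (left, UMIs per 10000 of the cell) and Ly6C antibody (right, UMIs per cell with 1 added, log axis) in single T cells, split by CD8 and Cd4 UMIs (horizontal axis) and colored by tissue; lines are medians. Ly6c2 RNA lies mostly in CD8 cells of every tissue, and the antibody median of CD8 cells is 36 in tumor, 116 in blood and 22.5 in spleen.

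Most tumor T cells with Gzmb also held Prf1, Pdcd1 and Ly6a, genes that were common in tumor T cells at large. Of 33 tumor T cells with Gzmb, 25 had Prf1 (75.8%), against 60.4% of all 48. Pdcd1 was in 25 (75.8%), against 70.8% of all, and Ly6a in 31 (93.9%), against 85.4% of all. Of the 33, 26 were CD8 cells without Cd4 (78.8%, against 68.8% of all), and 1 had Tcf7 (3.03%, against 12.5%). No test of these differences was made. In blood and spleen the 8 and 5 cells with Gzmb had Prf1 in 4 and 1 and Ly6a in 3 and 4.

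**Figure D4:**
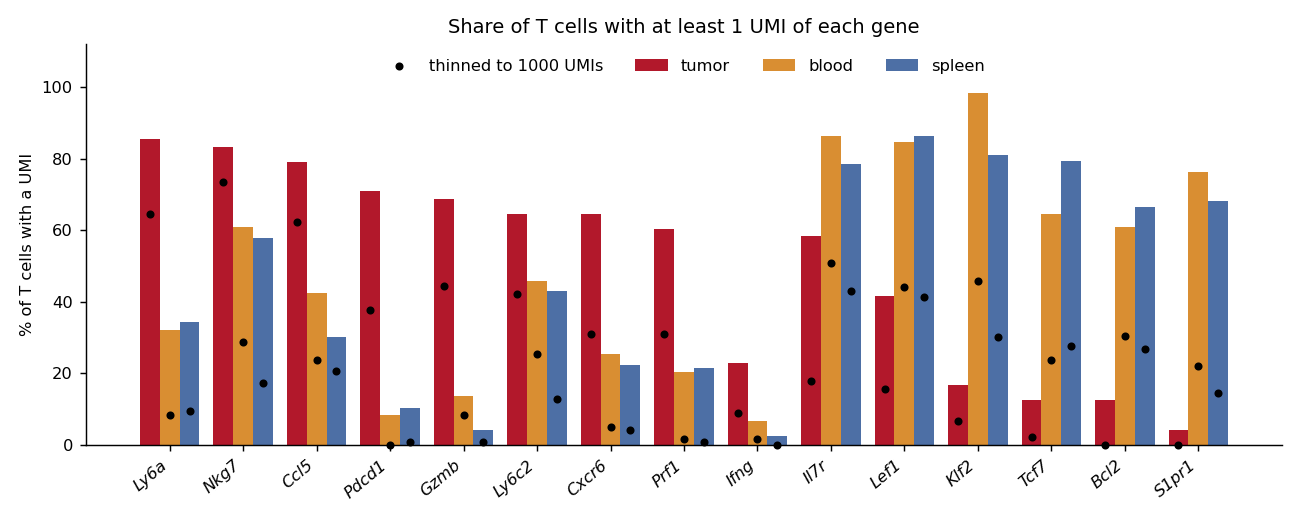
Share of T cells with at least 1 UMI of 15 genes (vertical axis, percent) in tumor (48 cells), blood (59) and spleen (116); black points are shares after thinning each cell to 1000 UMIs. Ly6a reaches 85.4% of tumor cells against 32.2% in blood and 34.5% in spleen, and S1pr1 4.17% against 76.3% and 68.1%.

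Most genes of the T cell receptor complex and its signalling did not pass the test. Of 20 tested members 4 rose (among them Trac, Cd6 and Sh2d2a) and 0 fell, with a median log2 fold change of 0.51. Sh2d2a, an adaptor of activated T cells, changed by 2.17 ± 0.35 (adjusted p = 4.77e-05). Trac changed by 1.02 ± 0.31 (adjusted p = 0.0433) but lost its call under 18 of 34 alternatives. Cd4 was seen in 7 of 48 tumor, 16 of 59 blood and 33 of 116 spleen T cells and was not called (adjusted p = 0.154). Genes of gamma-delta and innate-like T cells gave 3 tested members, of which 0 were called by edgeR or DESeq2 and 0 had an unadjusted p under 0.05, and a UMI of Trdc, Tcrg-C1, Tcrg-C2 or Tcrg-C4 was in 2 tumor, 12 blood and 14 spleen T cells.

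Among genes outside these lists, the 12 largest rises included Filip1, Ier5l, Dab2, Tff1 and Areg. Areg, a growth factor of the EGF family, had UMIs in 13 tumor, 1 blood and 1 spleen T cells and a ratio of summed counts of 238 (counting interval 78.0 to 1180.1) against 3 UMIs in blood and spleen (adjusted p = 2.29e-09), with 47.9% of its tumor UMIs in 1 cell. Filip1 was in 15 tumor cells, in 1 blood cell outside the sums and at 0 in the blood and spleen sums, at least 107-fold higher against 3 counts there, with all 5 tumor sums above. Tff1, a secreted mucosal peptide, was in 11 tumor and 0 blood or spleen T cells and at least 82.6-fold higher.

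Among the 12 largest falls was Cmah. This gene, which hydroxylates sialic acid in mice, was at 0 in tumor hashtags 2, 3, 4 and 7 and at 28.5 CPM in hashtag 5, against 147 to 442 CPM in blood (median 206) and 196 to 338 CPM in spleen (median 234). The tumor sums did not overlap the others, and the level was at least 12.5-fold lower against 3 counts over the larger tumor sums. St6gal1 and St8sia1, sialyltransferase genes also among the 12, were at 0 in both larger tumor sums and at least 9.59-fold and 3.71-fold lower. Dapl1, known from quiescent T cells, had UMIs in 0 tumor, 15 blood and 42 spleen T cells and was at least 14.3-fold lower. Tsix overlaps Xist on the opposite strand, and since no source states the strand setting its value is uncertain.

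Genes of hypoxia and glycolysis rose in 8 of 11 tested members (14 listed), with a median log2 fold change of 1.51, and 0 fell. Hif1a, the oxygen-regulated transcription factor, changed by 3.07 ± 0.39 and Hilpda, a lipid droplet protein that it induces, by 4.59 ± 0.56. The glycolytic enzyme genes Gapdh and Ldha changed by 1.38 ± 0.24 and 1.21 ± 0.32. In the main fit 4.38% of all genes tested were higher. Under TMM factors and under DESeq2 the count was 5 of 11, given here without the share of all genes called there.

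Early response genes, which also react to tissue digestion, rose in 5 of 11 tested members (Junb, Egr1, Ier3, Dusp1 and Btg2), with a median log2 fold change of 1.94. With 5 tumor sums 10 of 12 rose, where 6.3% of all genes were higher, and under DESeq2 3 of 11. Junb, an AP-1 subunit, was at 1322 and 1569 CPM in tumor hashtags 2 and 4 and at 345, 1567 and 661 CPM in hashtags 3, 5 and 7, against 49.5 to 156 CPM in blood (median 81.8) and 36.0 to 143 CPM in spleen (median 88.3). The tumor sums stood clear of all others, and the log2 fold change was 3.99 ± 0.29 (adjusted p = 6.87e-11). Other tumor barcodes held Junb at 2255 CPM. Only the tumor was digested at 37 °C, and the part of that step in this and every other tumor difference cannot be told apart from tissue.

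Of 9 tested genes of apoptosis and survival 5 rose (Bcl2a1b, Bcl2a1d, Bcl2l1, Bcl2l11 and Gadd45b) and 0 fell, whereas Bcl2, given with the naive and memory genes, fell. Bcl2a1d and Bcl2a1b, close copies whose reads the counting could split, changed by 3.79 ± 0.48 and 2.32 ± 0.48. Bcl2l1, which encodes the survival protein BCL-XL, changed by 2.98 ± 0.63, and Bcl2l11, the gene of the death-promoting BIM, by 1.75 ± 0.49. Of 13 tested interferon response genes 2 rose, Igtp and Irf1, and under DESeq2 0 did. Of 15 cell cycle genes 0 were called in either direction by edgeR or DESeq2, with a median log2 fold change of -0.90; at an unadjusted edgeR p under 0.05, 2 were higher and 1 lower. That median turned to 0.63 with at least 3 cells per sum and to 0.14 in CD8 cells, and in CD8 cells with at least 3 cells per sum it was 0.90 and edgeR called Tyms, a gene of nucleotide synthesis, higher. Among the lists given here with 0 falls, 1 member was lower at an unadjusted p under 0.05 in each of the regulatory, tissue residence, hypoxia and survival lists and 0 in the others, and DESeq2 called 0 lower in all of them.

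Surface antibodies gave a readout that the rule did not use. The sort, however, selected on Gr1, whose antibody binds Ly6C, and on cKit, so Ly6C and ckit were not free of selection. Each antibody was taken as its percent of the 18 surface antibodies' UMIs in a sum and compared by an exact two-sided permutation test of 2 tumor against 12 blood and spleen sums, whose smallest possible p is 0.0110, with Benjamini-Hochberg adjustment over 18 antibodies. Of the 18, 8 passed (44.4%). Among them CD11a, CD1632, CD64, CD14, Ly6C and CXCR4 were higher in tumor, and CXCR2 was lower. CXCR4 lost its call under 17 alternatives and kept it under 3. It was at 0.623% and 1.16% in tumor hashtags 2 and 4, of which the lower value lay below spleen hashtag 8 at 0.634%. Its median count per T cell was 1 in tumor, 0 in blood and 1 in spleen. With 5 tumor and 14 other sums 8 passed as well, among them CD11b and not Ly6C. Without either tumor sum 0 passed, since a single tumor sum allows no p below 0.0769 in the exact test. Among CD8 cells without Cd4, where 2 tumor, 2 blood and 4 spleen sums remain, 0 passed and 6 had an unadjusted exact p under 0.05.

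The percents of 1 sum add to a fixed total, so a change in 1 abundant antibody moves all others. With 1 abundant antibody left out of the total, an alternative added after seeing the data, 4 of 17 antibodies passed. CD1632, CD64 and CD14 were called higher in tumor, and CD44 was lower, at 26.1% in tumor against 45.7% in blood and spleen (adjusted p = 0.0467 by exact permutation). CD11a is an integrin chain that effector T cells carry in larger amounts. It was at 22.8% and 26.9% in the 2 tumor sums, against 7.23% to 12.7% in blood and 8.05% to 15.4% in spleen. With that smaller total its adjusted p was 0.0747 by exact permutation. In counts per T cell, the CD11a median was 52.5 in tumor, 70 in blood and 51.5 in spleen, so tumor was not higher on that scale. The surface antibodies together had medians of 199, 700 and 570 counts per T cell in these tissues.

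The Ly6C antibody and Ly6c2 RNA were compared in sums and in single cells. The antibody was at 16.1% and 19.3% in the 2 tumor sums, against 8.09% to 17.1% in blood and 2.67% to 8.42% in spleen, with an adjusted p of 0.0495 by exact permutation. The lower tumor sum overlapped blood, hashtags 3, 5 and 7 were lower, and with 5 tumor sums the mean was 10.4% against 7.80% (adjusted p = 0.499 by exact permutation). In counts per cell, the median was 24 in tumor, 24 in blood and 20 in spleen. With the smaller total the adjusted p was 0.467 by exact permutation. In CD8 cells without Cd4, Ly6c2 RNA was at 1043, 495 and 413 CPM and the antibody median at 36, 116 and 22.5 counts in tumor, blood and spleen. Within each tissue, CD8 cells with a Ly6c2 UMI had more of the antibody. In tumor the median was 40 counts in 29 cells with a UMI and 6 in 4 cells without, in blood 167.5 in 22 and 15 in 9, and in spleen 30 in 33 and 15 in 23. Cells with a UMI also had more RNA UMIs in blood and spleen, with medians of 12788 against 7396 and 14486 against 7647, but not in tumor (7088 against 8709.5).

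CD1632 (the Fc receptors CD16 and CD32), CD64 (a high-affinity Fc receptor) and CD14 (a co-receptor for bacterial lipids) are antibodies of myeloid cells. CD1632 was at 8.78% and 9.10% in the 2 tumor sums, against 0.0208% to 1.37% in blood and 0.0737% to 2.0% in spleen, with no overlap. Its median count per T cell was 19.5 in tumor, 0 in blood and 1 in spleen, and 147.5, 14 and 17 on the other barcodes of the same tissues. CD64 and CD14 had T cell medians of 3 and 2 counts in tumor and 25 and 30 on the other tumor barcodes. Whether these counts are on the T cells or come from free antibody or attached fragments was not tested.

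**Figure D5:**
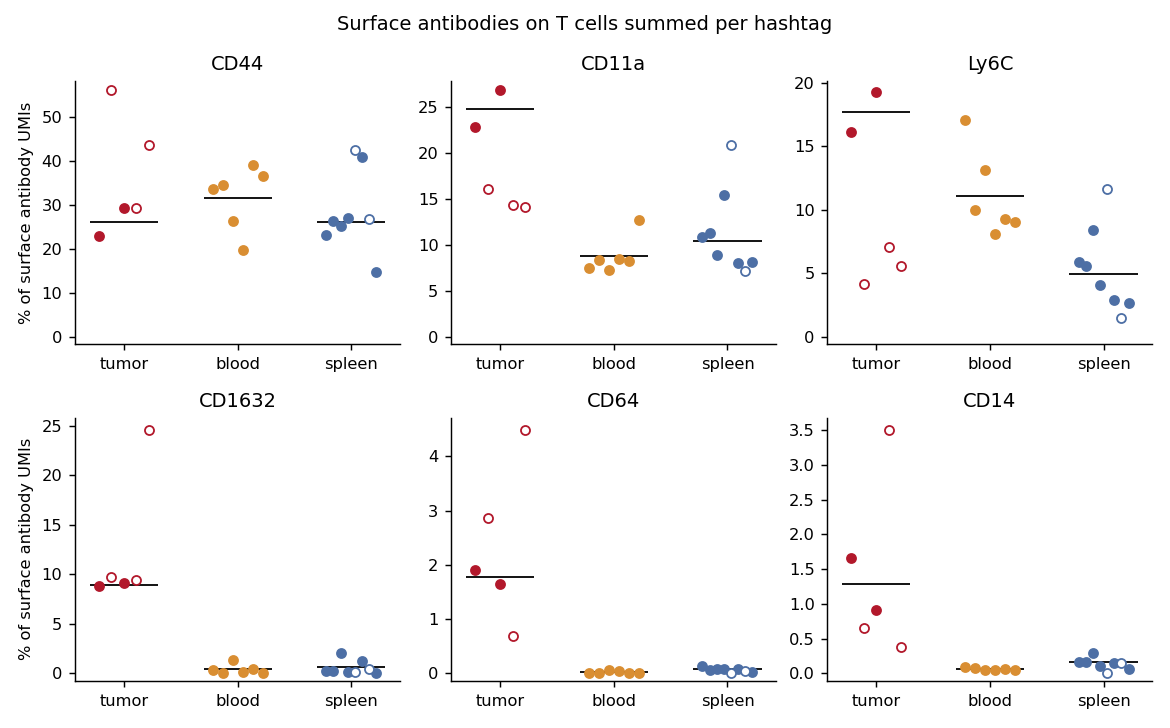
Percent of surface antibody UMIs (vertical axis) for 6 antibodies on T cells of tumor, blood and spleen; each point is 1 hashtag, filled with at least 5 cells and open with 3 or 4, and the line is the mean of the filled points. CD1632 lies between 8.78% and 24.6% in tumor, and the open Ly6C points of tumor lie at or below 7.10%.

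T cells of spleen and blood differed in few genes. At an adjusted p under 0.05, 23 genes (0.282%) were higher and 24 (0.294%) lower in spleen. Of 18 cytotoxic genes edgeR called 0, with a median log2 fold change of -0.34 against 0.18 over all genes; at an unadjusted p under 0.05, 3 were higher and 3 lower, and DESeq2 called 0 higher and 1 lower. Klf2 fell by 1.09 ± 0.23 on the log2 scale (adjusted p = 0.0218) and Cd69 by 1.55 ± 0.37 (adjusted p = 0.0454), whereas Tox was higher by 1.85 ± 0.37 (adjusted p = 0.0132). The largest rises were Bcl11a, Rad51b, Tpx2, Slc8a1, Cenpe and Kif11, of which Tpx2, Cenpe and Kif11 act in mitosis, and the largest falls were Lmna, Ass1, Hopx, Cd69, S100a6 and Klf6. Without the cells that carried macrophage or dendritic RNA edgeR called 0 genes higher and 1 lower, with 443 and 221 at an unadjusted p under 0.05. Among CD8 cells it called 0 and 0, with 328 and 133 at an unadjusted p under 0.05.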

How the data were processed

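The deposited counts are UMIs per feature and cell for 32285 genes, 10 hashtag and 18 surface antibodies in 20012 cells, which the authors made with Cell Ranger 7.0.1 and mm10, per the submitters' processing notes. The strand setting and doublet removal are not given in the sources used here. Barcode suffixes 1, 2, 3 and 4 were read as blood, bone marrow, spleen and tumor, a tie that no source states outright. A hashtag was assigned if its count reached 20 and 3 times that of the runner-up, and cells that carried several stayed out of the sums as possible doublets. Several hashtags were carried by 42.2% of all tumor barcodes, against 7.02% in blood, 7.65% in spleen and 9.93% in bone marrow. Among T cells they were carried by 6 of 48 in tumor, 8 of 59 in blood and 10 of 116 in spleen. Each hashtag in a tissue was taken as 1 mouse, an assumption, so p-values rest on the spread between hashtags. In edgeR the 3 tissues share that spread, which comes mostly from the 6 blood and 6 spleen sums. The 2 tumor sums were assumed to vary as much. Counts were summed per hashtag and tissue with at least 5 cells, and genes with at least 20 UMIs were tested with edgeR 4.0.16 (limma 3.58.1, R 4.3.3) on 3 tissues in 1 fit, with total UMIs as library size. The SE given with edgeR values is the absolute log2 fold change over the square root of the test's F statistic, not a fitted standard error. DESeq2 1.42.0 was an alternative. Antibodies and intervals used Python 3.11.15, numpy 2.4.6, scipy 1.17.1 and pandas 2.3.3. Cells were thinned to 1000 UMIs where shares are compared across depths. A fold against 0 was set against 3 counts over the group. Intervals and floors cover counting error only. The edgeR step was tested on simulated data.

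Genes named are the 12 largest and 12 smallest log2 fold changes (6 each for spleen against blood) among called genes with at least 50 CPM on a side, leaving aside genes of ribosomes, mitochondria, hemoglobin or immunoglobulin and genes with no proper symbol, and members of the lists on T cell identity, function and Ly6. Genes of the early response, hypoxia, survival and interferon lists were named after their values were seen. Members and lists were chosen with earlier results of these data known. Hashtag numbers were not used to pair the samples in the main fit. Bone marrow, with 7 T cells, entered no test. Alternatives were other scaling, low-count filters, cell minimums, hashtag rules, cell rules, thinning, a hashtag block and leaving out each sum. A fit of only the compared tissues is also among the 34 alternatives. For tumor against blood and spleen it is the main fit itself and could not differ. Some genes and an antibody that entered the fits and counts are not reported here by name.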

Additional observations from a re-analysis of the deposited data

Results flagged for a closer look

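In 103 groups of 4 to 10 hashtags, 21 had a highest value that stood far from the rest, where chance gives about 1 in 20 groups for normally distributed values. Many of these groups hold sparse counts with the rest at or near 0, for which that rate was not measured. Of 5 such cases in tumor, 4 lay in hashtag 5, which had 4 T cells. It held Klf2 at 627 CPM (next 137), Tcf7 at 171 CPM (next 46.1), Ccr7 at 627 CPM (next 0) and Cmah at 28.5 CPM (next 0). Ccl3 was at 1729 CPM in tumor hashtag 2, with 28.5 CPM in the next tumor hashtag.

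Single spleen hashtags stood apart with Gzmb at 98.1 CPM (next 36.0), Ccl3 at 6.38 CPM (next 0), Ccl4 at 65.0 CPM (next 18.0), Pdcd1 at 65.0 CPM (next 25.5) and Ctla4 at 432 CPM (next 68.7). In blood the same held for Nkg7 at 807 CPM (next 462), Ifng at 16.5 CPM (next 0), Ccl4 at 49.5 CPM (next 12.7), Ly6c2 at 830.5 CPM (next 459) and Cmah at 442 CPM (next 223).

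Among antibodies, 1 blood hashtag each stood apart for ckit at 0.281% of surface UMIs, CD11a at 12.7%, CD1632 at 1.37%, CD106 at 0.00935% and CCR2 at 0.111%. The bone marrow, which entered no comparison, held T cells at 0.123% of barcodes, above the 0.0528% that a count of 0 would allow. There 1 hashtag reached 0.509%, and the next 0.238%.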

How the results depend on the processing

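Of 101 genes named, 81 were called in tumor against blood and spleen, and 30 of them were called under every alternative that gave a value. Over 3298 values from 34 alternatives, 180 lost a call, 41 gained one and 1 called value changed sign; 39 of the lost calls came without tumor hashtag 2 and 11 from thinning. Klrc2 changed sign without tumor hashtag 2 (-3.87, adjusted p = 0.753) and ranged up to 4.15 when another sum was left out. TMM factors moved the median of all genes to -0.15. Genes higher in tumor numbered 357, against 205 with at least 100 UMIs per gene, 740 with several-hashtag cells kept, 66 after thinning and 200 with DESeq2. Genes lower in tumor numbered 129, against 194 with no low-count filter, 283 with at least 3 cells per sum, 311 with several-hashtag cells kept, 55 after thinning, 195 in CD8 cells with at least 3 cells and 289 without mixed cells (those with macrophage or dendritic RNA) with at least 3. Leaving out 1 sum gave 101 to 374 higher and 22 to 149 lower; the lowest of both came without tumor hashtag 2, and 74 were lower without tumor hashtag 4. Genes higher in spleen than blood numbered 23, against 5 with TMM, 124 with no filter, 4 with at least 3 cells, 1 with at least 10, 13 under the stricter S100 rule, 0 in CD8 cells, 4 after thinning, 0 without mixed cells, 4 in CD8 cells with at least 3 cells, 0 without mixed cells with at least 3 and 3 to 48 without 1 sum. Genes lower in spleen numbered 24, against 13, 69, 10 and 10 under the first 4 of these, 0 in CD8 cells, 10 after thinning, 1 without mixed cells, 6 in CD8 cells with at least 3 cells, 8 without mixed cells with at least 3, 39 with DESeq2 and 9 to 27 without 1 sum. With the hashtag number as a replicate block, 280 genes were higher and 149 lower in tumor, and 32 higher and 17 lower in spleen. Of 15 cell cycle genes 2 were then higher and 2 lower in tumor. Same-numbered blood and spleen sums deviated together at r from -0.10 to 0.11 over 4 pairs, and other pairs at r from -0.38 to 0.34. With few cells per sum and 4 pairs, these values cannot decide whether a number stands for the same mouse across tissues. Antibodies called numbered 8, against 0 in CD8 cells, 0 to 7 without 1 sum and 4 with 1 abundant antibody out of the total. CD24 reversed on the centred log ratio (-0.54, adjusted p = 0.0283 by exact permutation). With S100a8 and S100a9 under 0.1% and Lyz2 at 0, T cells made up 0.232% of blood, 0.983% of spleen and 0% of bone marrow barcodes, and thinned before the rule 0.429%, 0.987% and 0.0356%. The cause of these shifts was not tested. Tumor rests on 26 T cells in 2 sums, and genes of a few UMIs per sum were not detectable at this depth.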

Other observations

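Il17a and Il2 in tumor T cells came from single cells. All 77 Il17a UMIs of tumor T cells lay in 1 cell, and 43 of 44 Il2 UMIs in 1 cell. Proliferation genes were seen in every tissue, with a UMI of Mki67 or Top2a in 14 tumor, 11 blood and 31 spleen T cells. Pf4 and Ppbp, listed as platelet markers, summed to 785 CPM in tumor T cells (10 with a UMI), 45.1 CPM in blood T cells (4 with a UMI) and 0 in spleen T cells. The other cells of these tissues held them at 1904, 25.9 and 4.91 CPM. Which cell type this RNA came from was not tested.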
